A study of Mus musculus with 15 samples.

Results

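The granins and the enzymes that process prohormones were examined as a set of 10 mouse genes, namely Chga, Chgb, Scg2, Scg3, Scg5, Vgf, Pcsk1, Pcsk2, Pcsk1n and Cpe. They were taken by gene symbol from an expression matrix of 55359 genes, and each symbol matched 1 row. RNA was sequenced in 15 samples, 3 each of the 46LCNEC cell line (46LCNEC_cell), its allograft tumors (46LCNEC_allo), the 57SCLC cell line (57SCLC_cell), its allograft tumors (57SCLC_allo) and normal lung (Lung). The comparisons asked how far the expression program of a mouse large cell neuroendocrine carcinoma (LCNEC) model, a mouse small cell lung carcinoma (SCLC) model and normal lung differ, and whether a line keeps its program when it grows as a tumor. Chromogranin A, the product of Chga, is a protein that pathologists stain to recognise neuroendocrine tumors.

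Both lines came from lung tumors of QKO mice, which are null for Rbl1 without Cre. Further tumor suppressor genes, among them Rb1 and Trp53, are floxed and lost after Cre is delivered to the airways by adenovirus. The QKO recipients of the allografts carry the null Rbl1 as well. For 46LCNEC the Cre was driven by the CMV promoter, which is active in many lung epithelial cells, and for 57SCLC by the keratin K5 promoter of basal cells. The 46LCNEC cells grew attached and came from 3 dishes, and the 57SCLC cells grew as floating aggregates and came from 3 flasks. The labels used here give no strain, age or sex. Allografts were subcutaneous tumors of the same lines, injected with Matrigel into immunocompetent QKO mice, and the lungs came from littermates of such recipients. Each line is 1 line from 1 tumor, so the p-values below measure the spread between dishes, flasks, grafts or lungs and not between independent tumors of a type. The cell line, the tumor type, the promoter behind the Cre and the way of growing cannot be told apart in this design.

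Granins are acidic proteins that collect in the dense-core secretory granules of endocrine cells and neurons and help these granules to form. Peptide hormones reach the same granules as inactive precursors. There the convertases PC1/3 (from Pcsk1) and PC2 (from Pcsk2) cut them at pairs of basic residues, and carboxypeptidase E (from Cpe) trims the basic residues that are left. Pcsk1n encodes proSAAS, an inhibitor of PC1/3, and Scg5 encodes 7B2, a granin-like chaperone that PC2 needs to become active. In normal lung the cells that hold such granules are the rare pulmonary neuroendocrine cells.

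Since 9 of the 10 genes were higher in 57SCLC than in 46LCNEC both in cells and in allografts, the bases upstream of their start sites were searched for 4 given motifs. The RefSeq promoter table of GRCm39 held a window for 8 of the 10, not for Vgf and Cpe. The palindromic cAMP response element TGACGTCA, searched on both strands of the 250 bases upstream of the RefSeq start, was found for 3 of these 8 genes (Chgb, Scg2 and Pcsk1), and in 1.55% of all 32851 windows. A member counted if any of its windows matched, while the share of all is per window, so the 2 are not the same measure. With any base at the last but one position (TGACGTNA, which contains the former motif), Chga was added, which made 4 of 8 against 2.52% of all windows. By the RefSeq starts the match began 44 bases before the start of Chga, 68 before that of Scg2, 72 before that of Chgb and 78 before that of Pcsk1. The canonical transcripts of GENCODE M39 start elsewhere, and by these the match began 47 bases before the start of Pcsk1, 4 before that of Chga, 26 after that of Scg2 and 292 after that of Chgb, so it is not upstream of every annotated start. TATAAA, searched on the gene's strand, was found for none of the 8 genes and in 7.59% of all windows. GGGCGG, searched on both strands, was found for 5 of 8 and in 32.7% of all windows. The 30 bases around the match are shown for these 4 genes, 5′ to 3′ on the gene's strand, with the match in capitals (GRCm39: Chga chr12:102521145-102521174, plus strand. Chgb chr2:132623479-132623508, plus strand. Scg2 chr1:79417793-79417822, minus strand. Pcsk1 chr13:75237887-75237916, plus strand).
Chga: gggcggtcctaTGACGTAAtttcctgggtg
Chgb: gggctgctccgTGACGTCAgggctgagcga
Scg2: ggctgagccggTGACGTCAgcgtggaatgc
Pcsk1: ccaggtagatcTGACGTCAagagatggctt
A match of letters is a description of the window and says nothing of a factor bound there.

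Values are given as normalized counts, the reads of a gene divided by a scaling factor of the library. Reads counted per sample ran from 9480244, in the 57SCLC tumor numbered 275, to 44876572, with a median of 26502525. The sums of 5 alveolar markers were 204848 to 277666 in Lung and at most 218 in any other sample. The sums of 4 markers of pulmonary neuroendocrine cells (Calca, Syp, Uchl1, Ddc) were 49947 to 55224 in 57SCLC cells and 22955 to 25695 in their allografts, 720 to 846 in 46LCNEC cells and 78.1 to 164 in theirs, and 300 to 352 in Lung. Syp, for synaptophysin, had 13.7 ± 2.59 in 46LCNEC_cell and 9.37 ± 4.62 in 46LCNEC_allo, below its 58.9 ± 5.47 in Lung. Against Lung, Syp, Calca and Ddc were called lower in 46LCNEC_cell and Uchl1 was called higher (734 ± 70.5 and 116 ± 13.3). RNA of genes floxed or null in QKO mice was still counted in both lines (Rb1 66.6 to 777, Rbl1 1172 to 3166, Trp53 923 to 1548 normalized counts). Gene-level counts check neither a floxed exon nor the null allele of Rbl1. Bulk RNA cannot tell fewer cells of a type from less RNA per cell.

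Of the classical granins, Chga was abundant in 57SCLC and near the limit of detection elsewhere. Its normalized counts were 9885, 9737 and 8951 in the 3 57SCLC_cell cultures and 10973, 12847 and 11748 in the 3 57SCLC_allo tumors. They were 3.75, 6.62 and 2.31 in 46LCNEC_cell, 18.5, 1.05 and 12.2 in 46LCNEC_allo and 7.47, 10.97 and 1.17 in Lung. Every 57SCLC sample stood far above every other sample, while the 46LCNEC and Lung samples overlapped. Chga (ENSMUSG00000021194, chromosome 12, 102520484 to 102531300) was 10.91 ± 0.28 higher (log2 fold change ± SE) in 57SCLC_cell than in 46LCNEC_cell, with an adjusted p of 1.93e-08, and 10.52 ± 0.79 higher in 57SCLC_allo than in 46LCNEC_allo, with an adjusted p of 7.41e-05. A log2 fold change here is a difference of means of log2(normalized count + 1), which understates the change of a gene that is low in 1 group.

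**Figure D1:**
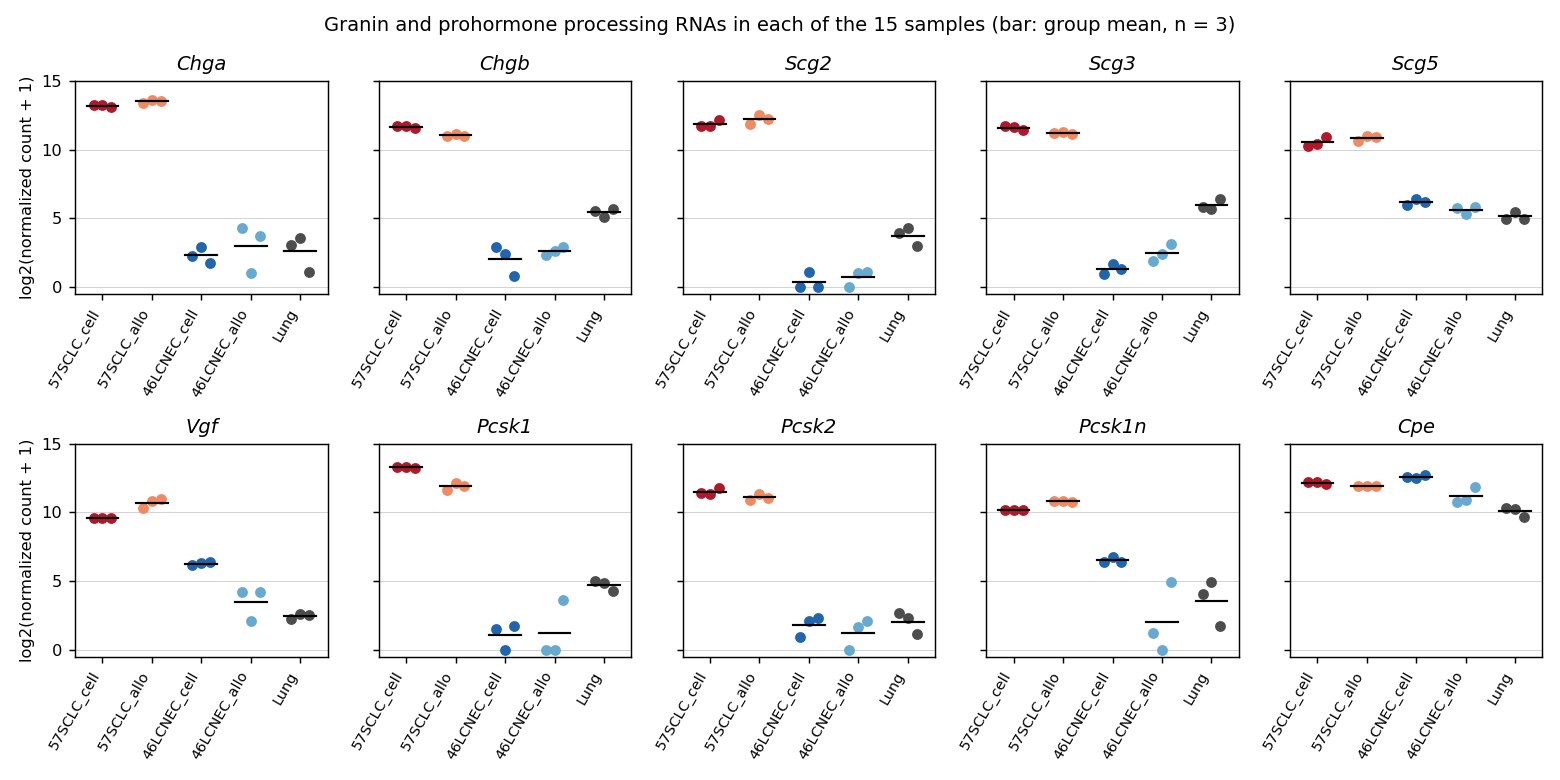
Each panel plots 1 gene, with the group on the horizontal axis and log2(normalized count + 1) on the vertical axis; points are samples (n = 3 per group) and bars are group means. In every panel but that of Cpe the 57SCLC samples sit above all 46LCNEC and Lung samples, and 46LCNEC_cell leads for Cpe.

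Chgb, which encodes chromogranin B, and Scg2, which encodes secretogranin II, the precursor of secretoneurin, had the same division. Chgb (ENSMUSG00000027350, chromosome 2, 132622464 to 132637904) reached 3259 ± 216 normalized counts in 57SCLC cells (SD, n = 3) and 2107 ± 139 in their tumors, against 3.92 ± 2.93 in 46LCNEC cells, 5.29 ± 1.33 in theirs and 43.1 ± 8.12 in Lung. Scg2 (ENSMUSG00000050711, chromosome 1, 79412386 to 79417837) had 3397, 3407 and 4525 in the 57SCLC cultures and 3756, 5998 and 4822 in the tumors. In 46LCNEC_cell it was seen in a single culture, with 1 read, and in 46LCNEC_allo in 2 tumors, with 1 read each. The levels of Scg2 in Lung were 14.2, 18.9 and 7.02, between those of the lines. As a ratio of reads, scaled by library, Scg2 was 12437 times as high in 57SCLC_cell as in 46LCNEC_cell (95% interval from counting error 2232 to 491249) and 6541 times as high in 57SCLC_allo as in 46LCNEC_allo (1810 to 54018). Its fitted log2 fold changes were 11.51 ± 0.32 for the cells (adjusted p = 2.75e-08) and 11.52 ± 0.38 for the allografts (adjusted p = 6.75e-06), and those of Chgb were 9.61 ± 0.48 (adjusted p = 6.01e-07) and 8.41 ± 0.25 (adjusted p = 6.14e-06).

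Scg3, whose product secretogranin III binds chromogranin A to the granule membrane, was the member with no overlap between any neighbouring groups in its order other than Cpe. Its levels (ENSMUSG00000032181, chromosome 9, 75546929 to 75591396) were 2765 to 3317 in 57SCLC_cell, 2226 to 2517 in 57SCLC_allo, 50.9 to 83.1 in Lung, 2.65 to 7.74 in 46LCNEC_allo and 0.938 to 2.21 in 46LCNEC_cell. The 46LCNEC_cell values stood for 1, 2 and 2 reads, and by reads Scg3 was 2021 times as high in 57SCLC_cell (counting interval 866 to 6227). It was higher in 57SCLC by 10.27 ± 0.22 among cells (adjusted p = 9.25e-09) and by 8.76 ± 0.35 in allografts (adjusted p = 9.54e-06).

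Vgf and Scg5 differed from the other granins in that 46LCNEC cells expressed them. Vgf (ENSMUSG00000037428, chromosome 5, 137055246 to 137062205), the precursor of several neuropeptides, had values of 782, 774 and 764 in the 57SCLC cultures and of 1307, 1805 and 1995 in the tumors. Its values were 69.4, 78.4 and 80.7 in 46LCNEC_cell, 17.2, 3.16 and 17.7 in 46LCNEC_allo and 3.74, 4.99 and 4.68 in Lung. The 46LCNEC cultures were thus above every 46LCNEC tumor and every lung, and below every 57SCLC sample. Vgf was 3.33 ± 0.12 higher in 57SCLC_cell than in 46LCNEC_cell (adjusted p = 8.15e-08) and 7.222 ± 0.60 higher in 57SCLC_allo than in 46LCNEC_allo (adjusted p = 0.000113). Scg5 (ENSMUSG00000023236, chromosome 2, 113606688 to 113660094) ran from 1218 to 1921 in 57SCLC cells and from 1556 to 2044 in the 57SCLC tumors. For 46LCNEC the ranges were 61.0 to 86.1 in cells and 37.9 to 56.4 in tumors, and for Lung 29.9 to 43.9. It was 4.34 ± 0.20 higher in 57SCLC among cells (adjusted p = 3.61e-07) and 5.23 ± 0.21 among tumors (adjusted p = 1.03e-05).

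Of the enzymes, Pcsk1 (ENSMUSG00000021587, chromosome 13, 75237284 to 75284898) was the member with the highest normalized count in 57SCLC_cell. It had 10067, 10072 and 9620 in 57SCLC_cell and 3198, 4585 and 3884 in 57SCLC_allo. In 46LCNEC_cell it had 2, 0 and 3 reads, and in 46LCNEC_allo 0, 0 and 10 reads, the last in the tumor numbered 321. Lung had 30.6, 27.9 and 18.7 normalized counts, above all 46LCNEC samples. By reads, Pcsk1 was 6487 times as high in 57SCLC_cell as in 46LCNEC_cell (counting interval 2779 to 19978). The fitted log2 fold changes were 12.19 ± 0.42 for cells (adjusted p = 7.51e-08) and 10.71 ± 0.96 for tumors (adjusted p = 0.000149). Pcsk2 (ENSMUSG00000027419, chromosome 2, 143387993 to 143659507) stood at 2959 ± 482 in 57SCLC cells and 2194 ± 355 in their tumors, against 2.70 ± 1.55 and 1.81 ± 1.68 for cells and tumors of 46LCNEC and 3.46 ± 2.08 for Lung, all as normalized counts. These last 3 groups overlapped, and Pcsk2 was higher in 57SCLC by 9.74 ± 0.35 among cells (adjusted p = 9.28e-08) and by 9.84 ± 0.56 in allografts (adjusted p = 2.52e-05). Antisense RNAs of Pcsk2 share up to 260 bases (2.34%) of its exons, and the strand setting of the counting was not stated, so reads of both cannot be told apart.

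Pcsk1n (ENSMUSG00000039278, chromosome X, 7786043 to 7790649) had the group order of Vgf except that Lung stood above 46LCNEC_allo. The inhibitor had 1135, 1174 and 1129 normalized counts in 57SCLC_cell, 1819, 1866 and 1773 in 57SCLC_allo and 81.6, 108 and 83.0 in 46LCNEC_cell. The 46LCNEC_allo tumors 312, 319 and 321 had 1.32, 0 and 29.9, and the lungs 15.7, 29.9 and 2.34. Pcsk1n was 3.65 ± 0.13 higher in 57SCLC_cell than in 46LCNEC_cell (adjusted p = 1.12e-07) and 8.77 ± 1.17 higher in 57SCLC_allo than in 46LCNEC_allo (adjusted p = 0.000868). Eras, on the opposite strand, shares 135 bases (5.04%) of its exons.

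Cpe did not follow the other members. Its normalized counts (ENSMUSG00000037852, chromosome 8, 65045555 to 65146435) were 6190, 5930 and 6622 in 46LCNEC_cell and 4783, 4669 and 4237 in 57SCLC_cell. In the tumors they were 3794, 3951 and 3938 in 57SCLC_allo and 1748, 1950 and 3717 in 46LCNEC_allo, and in Lung 1298, 1198 and 804. Every group was expressed well, in the order 46LCNEC_cell, 57SCLC_cell, 57SCLC_allo, 46LCNEC_allo and Lung, and no neighbours in this order overlapped. The difference between the lines was -0.45 ± 0.08 in cells (57SCLC minus 46LCNEC, adjusted p = 0.001, 95% interval -0.64 to -0.27) and 0.74 ± 0.27 in allografts (adjusted p = 0.0561, 95% interval 0.09 to 1.39), both smaller than the fold required for a call. Without tumor 321, the 46LCNEC tumor with most Cpe, the allograft difference was 1.08 and passed (adjusted p = 0.00039).

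A call required that the adjusted p be no more than 0.01 and that the log2 fold change be 1 or larger, up or down. By this rule 9 of 10 members were higher in 57SCLC_cell than in 46LCNEC_cell, beside 23.9% of the 16920 genes tested, and the same 9, all but Cpe, were higher in 57SCLC_allo than in 46LCNEC_allo, beside 16.1% of 17502 genes. No member was lower in either, beside 22.2% and 14.2% of the genes. The median log2 fold change of the 10 was 9.67 in cells and 8.77 in allografts, against 0.000278 and 0.0146 over all genes tested. A gene entered the test with at least 10 normalized counts in 3 of the 6 samples. In the cells Chga, Chgb, Scg2, Scg3, Pcsk1 and Pcsk2 reached that level in 57SCLC alone, so they could enter only by being high there. In the allografts these genes, Vgf and Pcsk1n did not reach it in all 3 46LCNEC tumors and entered through 57SCLC as well. These counts describe the members and test nothing about them as a list.

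**Figure D2:**
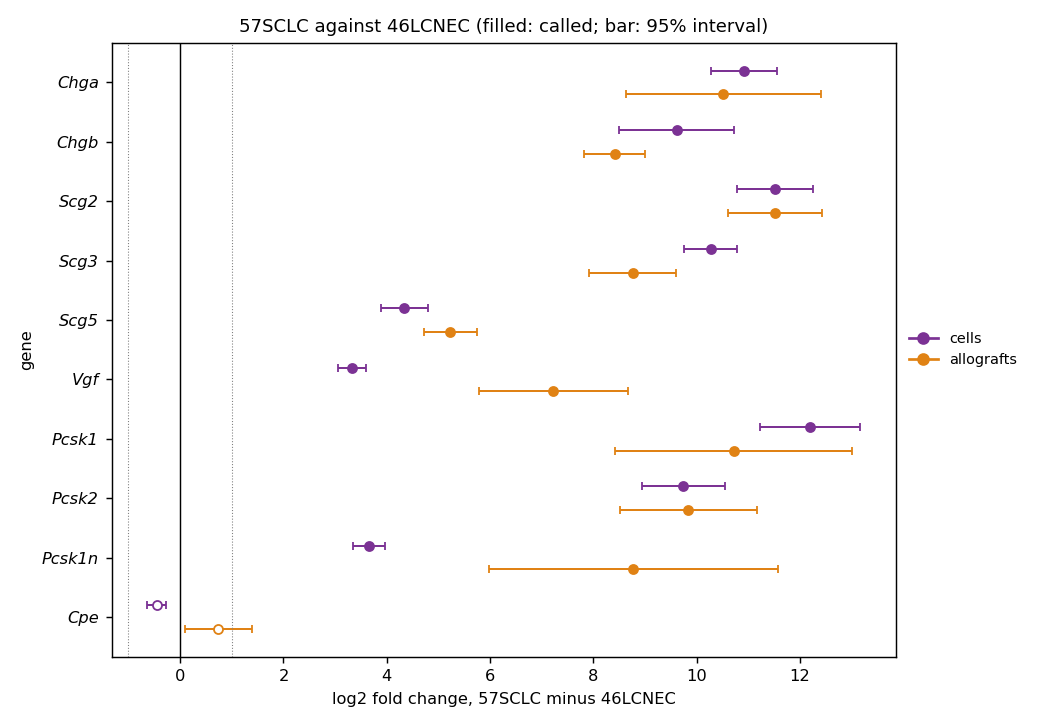
Log2 fold change of 57SCLC minus 46LCNEC (horizontal axis) for each gene, in cells and in allografts; points are estimates from 3 against 3 samples, bars are 95% intervals, filled points were called and dotted lines mark a log2 fold change of 1 in size. Scg5, Vgf and Pcsk1n have the smallest called differences in cells, between 3.33 and 4.34, and Cpe lies nearest to 0.

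Against normal lung, all 10 members were called higher in 57SCLC_cell, where 21.1% of 18467 genes were, and all 10 in 57SCLC_allo, where 18.9% of 18517 genes were, and none was lower, beside 32.7% and 26.9%. The largest of these differences was that of Chga, with 10.62 ± 0.57 for cells (adjusted p = 1.02e-06) and 10.94 ± 0.56 for tumors (adjusted p = 1.23e-06), and the smallest that of Cpe, with 2.08 ± 0.17 (adjusted p = 1.35e-05) and 1.85 ± 0.17 (adjusted p = 2.58e-05). Lung held Chgb, Scg3, Scg2 and Pcsk1 at levels above the 46LCNEC line, so the order of the groups was 57SCLC, Lung and then 46LCNEC for these 4 genes. The comparisons with Lung share the same 3 lung samples and are not independent of one another. Chga, Scg2, Vgf, Pcsk2 and Pcsk1n did not reach 10 normalized counts in all 3 lungs. They entered the tests of 57SCLC against Lung only by being high in 57SCLC. The counts of called members therefore describe the members and test nothing about them as a list.

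The 46LCNEC line did not share 1 direction against lung. In 46LCNEC_cell 7 members could be tested, of which 4 were called higher, beside 20.6% of 18142 genes, and 3 lower, beside 35% of them. Higher were Vgf by 3.82 ± 0.25 (adjusted p = 6.03e-07), Pcsk1n by 2.93 ± 0.69 (adjusted p = 0.00336), Cpe by 2.53 ± 0.16 (adjusted p = 4.83e-07) and Scg5 by 1.06 ± 0.25 (adjusted p = 0.0034). The call of Scg5 was lost without culture 2 or 3 or without lung 1 or 3 (0.93 to 1.06, adjusted p from 0.0128 to 0.0171), and that of Pcsk1n without any 1 of the 3 cultures or without lung 1 (adjusted p from 0.0123 to 0.0142). Lower were Scg3 (-4.64 ± 0.32, adjusted p = 9.53e-07), Pcsk1 (-3.63 ± 0.48, adjusted p = 7.88e-05) and Chgb (-3.39 ± 0.51, adjusted p = 0.000199). Vgf and Pcsk1n did not reach 10 normalized counts in all 3 lungs and entered this test only through 46LCNEC_cell. Chgb, Scg3 and Pcsk1 did not reach that level in any 46LCNEC culture and entered only through Lung. The directions of their calls were thus tied to the filter, and the counts of called members test nothing about them as a list. Chga, Scg2 and Pcsk2 did not reach the level needed for the test. Of these, Scg2 had 1 read in the 3 cultures and 44 in the 3 lungs, a ratio of 45.1 in favour of Lung with a counting interval of 7.68 to 1820. In 46LCNEC_allo, where 7 members could again be tested, none was called higher, beside 13.4% of 18033 genes, and 2 were lower, beside 22.1% of them, Scg3 by -3.51 ± 0.43 (adjusted p = 0.000558) and Chgb by -2.82 ± 0.33 (adjusted p = 0.000489). Scg3 and Chgb did not reach 10 normalized counts in any of these tumors, so they too entered only through Lung, where they were high. Fits that left out 1 library asked for 10 normalized counts in 2 samples in place of 3. Without tumor 321, the 1 tumor with Pcsk1 reads, Pcsk1 was called lower than in Lung as well (-4.71, adjusted p = 0.000214). Scg2 entered that fit by the looser filter and through Lung alone, and with it 4 members were lower. Without tumor 319, Vgf entered by the looser filter, through the remaining tumors alone, and was called higher than in Lung.

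**Figure D3:**
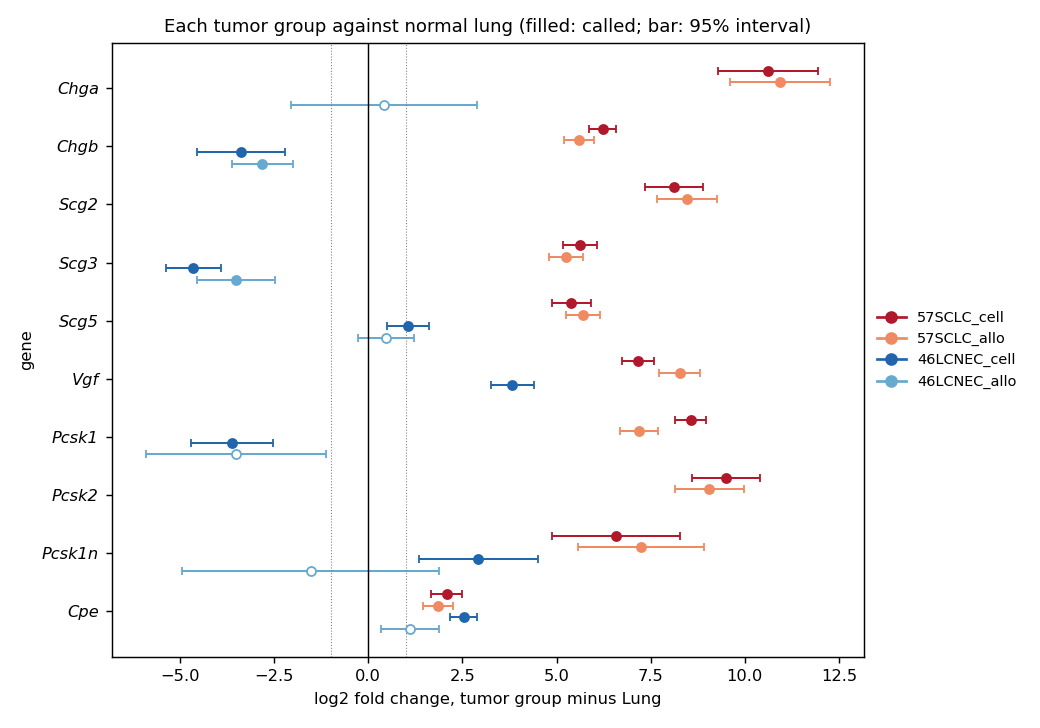
Log2 fold change of each tumor group minus Lung (horizontal axis) for each gene; points are estimates from 3 against 3 samples, bars are 95% intervals, and filled points were called. Genes below the level needed for a test have no point in that group, as Scg2 and Pcsk2 in both 46LCNEC groups.

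In 57SCLC_allo against 57SCLC_cell 1 of 10 was called higher, beside 14.4% of 17078 genes, and 1 lower, beside 2.29% of them. Vgf rose by 1.11 ± 0.15 (adjusted p = 0.000557), and the ranges of cells and tumors did not overlap. Pcsk1 fell by 1.37 on the log2 scale (SE 0.13, adjusted p = 6.77e-05), from 9920 ± 260 to 3889 ± 694 normalized counts. Neither call held when the spread was estimated over all 15 samples, which gave an adjusted p of 0.0623 for Vgf and 0.177 for Pcsk1, and without tumor 317 the change of Vgf was 0.99. Pcsk1n (0.67 ± 0.07, adjusted p = 0.000177) and Chgb (-0.63 ± 0.09, adjusted p = 0.000675) passed the p but not the fold of the rule, and the other 6 members lay between -0.43 for Pcsk2 and 0.35 for Scg2. Markers of other cells moved with the same contrast. The sums of 5 fibroblast markers were 23.4 to 28.9 in 57SCLC_cell and 38646 to 59643 in 57SCLC_allo, and those of 5 leukocyte markers 248 to 275 and 8942 to 14836, with all 10 markers called higher. Their part in the changes of Vgf and Pcsk1 was not tested.

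In 46LCNEC only Scg5, Vgf, Pcsk1n and Cpe reached the level needed to compare allografts with cells, and none was called higher there, beside 14.4% of 16375 genes. Vgf and Pcsk1n did not reach 10 normalized counts in all 3 tumors and entered only through the cells, where they were high. The direction of their change was thus tied to the filter, and the counts test nothing about the members as a list. Vgf was called lower (-2.78 ± 0.60, adjusted p = 0.00675), as was Cpe (-1.42 ± 0.27, adjusted p = 0.00382), beside 8.45% of genes. Pcsk1n was lower by a larger and more variable amount (-4.46 ± 1.15, adjusted p = 0.0145) and was called without tumor 321 (-5.90, adjusted p = 0.000183). The calls of Vgf and Cpe were lost when any 1 of the 3 cultures was left out, with adjusted p-values from 0.0162 to 0.0325, and that of Cpe also without tumor 312 (-1.21, adjusted p = 0.0102). Here too the 5 fibroblast markers and 5 leukocyte markers were all called higher in the tumors. The 46LCNEC cultures held RNA of the fibroblast markers themselves, with sums above the 21322 to 26702 of Lung. Against Lung, Col1a1 and Col1a2 were called higher and Dcn and Pdgfra lower in the cultures. In this line these markers are therefore not specific to host cells. The fibroblast sums differed, from 76103 to 86538 in the cells and from 412474 to 831098 in the tumors, with the lowest sum in tumor 321, and the leukocyte sums were 330 to 384 in the cells and 22014 to 48518 in the tumors, with the highest in tumor 321. Their part in the lower values was not tested.

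The allograft and cell differences of the lines were then compared in 1 model over the 12 samples of both lines. The difference between 57SCLC and 46LCNEC was larger in allografts than in cells for Vgf by 3.89 ± 0.64 (adjusted p = 0.000652), for Pcsk1n by 5.12 ± 1.25 (adjusted p = 0.00739) and for Cpe by 1.19 ± 0.30 (adjusted p = 0.00871), 3 members beside 10.8% of 18440 genes. For Vgf and Pcsk1n the tumors were above the cells in 57SCLC and below them in 46LCNEC. Cpe was lower in tumors of both lines, by 0.23 in 57SCLC without passing the rule. No member had a called difference in the opposite direction, beside 6.78% of genes, with -1.51 ± 0.42 for Scg3 (adjusted p = 0.0152) and -1.48 ± 1.12 for Pcsk1 (adjusted p = 0.324). Leaving out 1 library at a time, the call of Pcsk1n was lost in 10 of 12 cases (all but tumors 319 and 321, adjusted p from 0.0163 to 0.0203), that of Cpe in 11 of 12 (all but tumor 321, adjusted p from 0.0156 to 0.0252), and that of Vgf in none. The call of Cpe was also lost with edgeR (adjusted p = 0.0145) and that of Pcsk1n with DESeq2 (adjusted p = 0.0165).

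To compare members with each other, normalized counts were divided by the length of all exons of the gene in kb. In 57SCLC_cell Scg2 and Chga came highest, with 1502 ± 258 and 1462 ± 77.1 per kb, and their samples overlapped. Cpe (1273 ± 80.4) and Pcsk1 (1212 ± 31.7) followed and overlapped too, then Chgb (797 ± 52.7), Pcsk1n (428 ± 9.08), Scg3 (367 ± 34.7), Pcsk2 (266 ± 43.4), Vgf (260 ± 3.01) and Scg5 (141 ± 34.2). In 57SCLC_allo Scg2 (1932 ± 446) and Chga (1820 ± 145) again came highest and Scg5 (172 ± 24.0) lowest. With the longest transcript as length in place of all exons, Chga came highest in both, at 2829 ± 149 and 3521 ± 280, and Cpe (1766 ± 111) came before Scg2 in 57SCLC_cell. In 46LCNEC_cell Cpe had 1743 ± 97.6 per kb and the next member, Pcsk1n, 33.9 ± 5.57. The 6 granins summed to 4529 ± 127 per kb in cells and 5295 ± 727 in tumors of 57SCLC, to 34.4 ± 2.93 and 12.6 ± 4.92 in those of 46LCNEC, and to 29.1 ± 0.323 in Lung. The composition differed as well, since Vgf made up 74.7% ± 3.86 of that sum in 46LCNEC_cell, 5.75% ± 0.220 in 57SCLC_cell and 5.16% ± 0.700 in Lung, where Chgb was the largest share with 36.3% ± 6.96.

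**Figure D4:**
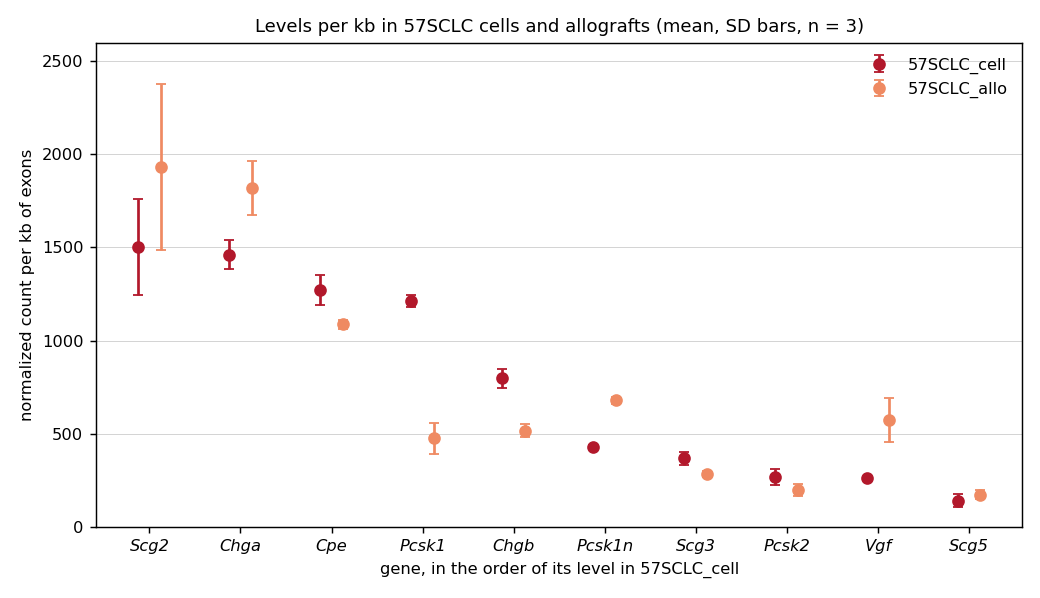
Normalized count per kb of exons (vertical axis) of the 10 genes (horizontal axis, in the order of 57SCLC_cell) in 57SCLC cells and allografts; points are means and bars SDs of 3 samples. Pcsk1 stands at 1212 in cells and 475 in allografts, while Vgf stands at 260 and 573.

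Ratios between members were taken within each 57SCLC sample, as RNA, since no protein amounts were measured here. The ratio of Pcsk1 to Pcsk1n, the gene of its inhibitor, both per kb, was 2.90, 2.81 and 2.79 in the cultures and 0.576, 0.805 and 0.717 in the tumors. Every culture thus held more Pcsk1 RNA per kb, and every tumor more Pcsk1n RNA per kb. The ratio of Pcsk2 to its chaperone Scg5 was 1.92 ± 0.202 in cells and 1.15 ± 0.101 in tumors, and that of Pcsk1 to Pcsk2 was 4.64 ± 0.801 and 2.40 ± 0.131. Among granins, Chga to Chgb was 1.84 ± 0.0462 in cells and 3.53 ± 0.184 in tumors, and Chga to Vgf was 5.62 ± 0.237 and 3.26 ± 0.572. The values of cells and tumors did not overlap in any of these 5 ratios, but those of Chga to Scg2 did, with 1.12, 1.103 and 0.764 in cells and 1.13, 0.827 and 0.941 in tumors. By the longest transcript, Chga to Chgb was 3.41 in cells and 6.56 in tumors, Chga to Vgf 10.4 and 6.005, and Pcsk1 to Pcsk2 2.99 and 1.55, so each size depends on the length used. Another length multiplies a ratio by the same factor in cells and tumors, so it could not alter the direction between them. The ratios are given as a description because their numerators and denominators are the members tested above.

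**Figure D5:**
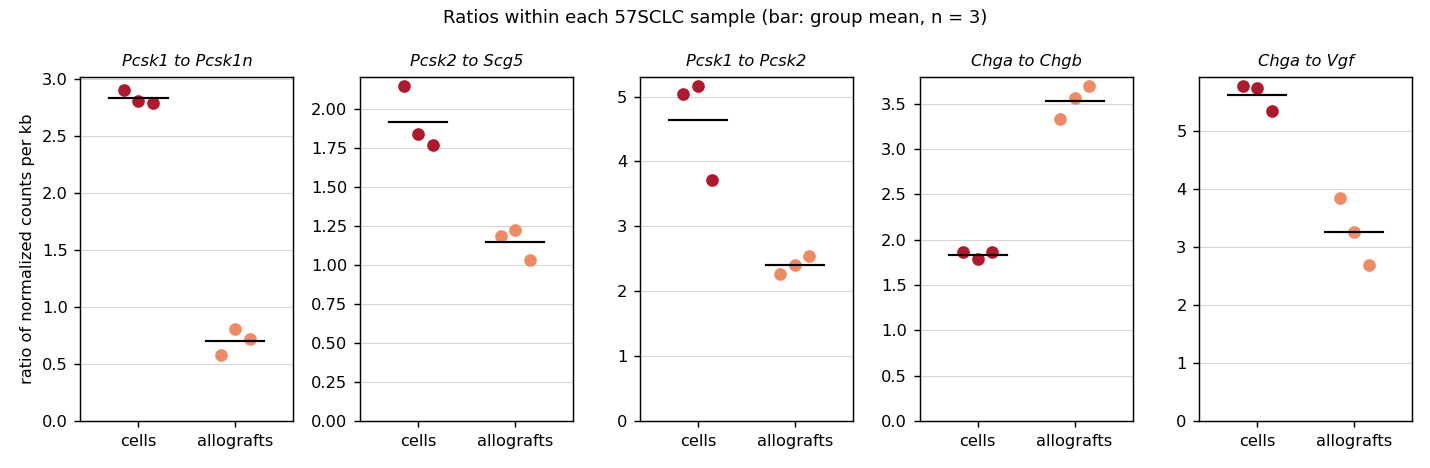
Ratio of normalized counts per kb (vertical axis, from 0) within each 57SCLC culture and tumor; points are samples and bars are means of 3. The Pcsk1 to Pcsk1n ratio lies at 2.79 or above in the cultures and at 0.805 or below in the tumors.

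Genes that act beside the members were taken from lists of known role. Their counts are to be read against all genes tested, of which 23.9% were higher and 22.2% lower in 57SCLC cells, and 16.1% and 14.2% in allografts. Genes near 0 in 46LCNEC, among them Resp18, Insm1, Myt1 and Srrm4 below, could enter these tests only through 57SCLC. The counts therefore describe the lists and test nothing about them. Of 7 other proprotein convertases none was called higher in 57SCLC_cell than in 46LCNEC_cell, 2 were lower, Pcsk5 among them, and the median log2 fold change was -0.60, while in allografts 3 were higher, none was lower and the median was 1.15. Among the latter were Pcsk4, a convertase known from germ cells, with 699 ± 28.6 normalized counts in 57SCLC_allo and 145 ± 16.7 in 46LCNEC_allo (2.27, adjusted p = 5.44e-05), and Pcsk6, with 227 ± 52.1 and 64.0 ± 20.6. Furin, the convertase of the general secretory route, was not called in either setting, with 2569 ± 235 in 57SCLC_allo and 4473 ± 490 in 46LCNEC_allo. Of the carboxypeptidases and enzymes that finish peptide ends, 3 of 7 tested were higher (Cyb561, Cpm and Qpct) and 1, the cathepsin gene Ctsl, lower in 57SCLC cells (median 0.85), and 2 of 8 higher and none lower in allografts (median 0.21). These 2 were Cpm, a membrane carboxypeptidase, with 384 ± 64.3 in 57SCLC_allo and 12.5 ± 8.96 in 46LCNEC_allo, and Cyb561, the granule membrane cytochrome that supplies electrons for peptide amidation, with 2876 ± 335 and 439 ± 370. Both were higher still in Lung, with 8971 ± 766 and 5056 ± 160.

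The list for granule formation, transport and docking was read against the same shares. In cells 9 of 12 tested were higher in 57SCLC and none lower (median 3.02), and in allografts 9 of 13 were higher and none lower (median 2.24). Resp18, a granule protein of endocrine cells, was at 774 ± 144 normalized counts in cells and 267 ± 11.8 in tumors of 57SCLC, at 1.39 ± 1.23 in 46LCNEC cells, at 0 in all 3 of their tumors and at 8.58 ± 2.91 in Lung. Syt7, a calcium sensor of granule release, had 16619 ± 2237 in 57SCLC_allo and 118 ± 63.6 in 46LCNEC_allo, a difference of 7.25 (adjusted p = 1.59e-05). Rab3a, a small GTPase on secretory granules, and Hid1, which acts in granule formation, had smaller differences of 1.80 (adjusted p = 5.9e-05) and 2.01 (adjusted p = 8.58e-05).

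Of 7 regulators, 4 were higher and 1 lower in 57SCLC cells (median 1.03), and 3 higher and 1 lower in 57SCLC allografts (median 0.87). The 1 of 7 lower is near the share of all genes lower. Crem, a factor of the cAMP response, was the regulator called in cells alone. The zinc finger factor Insm1, which drives endocrine differentiation, was at 34353 ± 6902 normalized counts in cells and 21992 ± 5054 in tumors of 57SCLC, at 5.79 ± 4.40 and 1.92 ± 2.27 in those of 46LCNEC and at 23.7 ± 2.55 in Lung. Myt1, a neural zinc finger factor, had 1610 ± 324 in 57SCLC_allo and 1.55 ± 1.67 in 46LCNEC_allo, and Srrm4, a splicing factor of neurons known to act on Rest, had 1792 ± 676 and 0.702 ± 1.215. Rest, the repressor of neuronal genes in other tissues, was the gene of the list that was lower. Between the lines its values ran the other way from the granins. In 57SCLC they were 6.55, 9.05 and 5.73 in cells and 201, 160 and 255 in tumors. In 46LCNEC they were 1947, 1878 and 1874 in cells and 3111, 3432 and 2429 in tumors, and in Lung 1249, 1181 and 1239, so 57SCLC cells were lowest and their tumors stood between. The lines differed by -7.89 ± 0.18 as cells (adjusted p = 1.29e-08) and by -3.87 ± 0.21 as tumors (adjusted p = 2.32e-05). Rest was 4.67 ± 0.28 higher in 57SCLC_allo than in 57SCLC_cell (adjusted p = 4.94e-06), where the fibroblast and leukocyte marker sums given above were higher too, and their part in this was not tested. Among the members, Vgf was called higher and Pcsk1 lower in the same contrast.

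Across the 15 samples, Pearson's r of log2(normalized count + 1) between members other than Cpe ran from 0.727 to 0.990 over 36 pairs, with a median of 0.937, and between Cpe and the others from 0.0900 to 0.690 over 9 pairs, with a median of 0.392. The highest were Chgb with Scg3 (0.990) and Chgb with Scg2 (0.988), and the lowest Scg3 with Cpe. These values describe 15 points that share 5 groups and 1 scaling, and no p is given. Outside the set, the genes most like Chga were Pkd1l1 (0.991) and Slc26a5 (0.990), those most like Chgb were Elavl4 (0.995) and Ypel1 (0.994), and those most like Scg3 were Cited4 (0.998) and Rimbp2 (0.997). Pla2g2f (0.995) was among those most like Scg2, Trit1 (0.997) and Ppie (0.991) were closest to Scg5, and Tmem171 (0.988) and Celf5 (0.983) to Vgf. Snph (0.9949) and B3gat1 (0.9945) were closest to Pcsk1, Snap91 (0.996) and Ankrd10 (0.995) to Pcsk2, and H2bu2 (0.975) and Setd6 (0.972) to Pcsk1n. For Cpe the closest were Pdss1 (0.9807) and Slc24a2 (0.9805), and like Cpe both had their highest mean in 46LCNEC_cell, with 856 and 682 normalized counts.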

How the data were processed

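The deposited matrix held signal values, which were read counts per gene that the authors divided by the DESeq2 size factor of each sample. Upstream of it, the authors selected poly-A RNA, sequenced 2 × 150 bases, aligned with Rbowtie2 to GRCm39 and counted with featureCounts on GENCODE M27. Strand setting and handling of multi-mapped reads are not given in the sources used here. All nonzero values were whole multiples of 1 step per sample within a tolerance of 0.01 reads, so reads were recovered by division. Of 55359 genes, 1347 rows without a name held 0.0021% of the values.

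Comparisons used limma 3.58.1 (R 4.3.3) with a mean-variance trend on log2(normalized count + 1), the 6 samples compared (12 for the difference between differences) and genes that reached 10 normalized counts in 3 or more samples. The p-values were adjusted over all genes tested by Benjamini-Hochberg. Calls needed an adjusted p no higher than 0.01 and an absolute log2 fold change no lower than 1. Alternatives were edgeR 4.0.16 (quasi-likelihood, TMM) and DESeq2 1.42.0 on recovered reads, TMM scaling, pseudocounts of 0.1 and 5, no filter, limma's treat test for changes above 2-fold, a single model over the 15 samples, a block by culture letter, each sample left out (filter in 2 samples), and longest transcripts as length. The fits were tested on simulated data. Ratios against groups of few reads have exact 95% intervals that cover counting error only. Coordinates and exon lengths came from GENCODE M39 on GRCm39, which held 98.9% of the identifiers, and start sites from RefSeq. Figures used matplotlib 3.10.9.

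The members and lists were chosen with earlier results of these data known. Of each list at most 4 genes called in 57SCLC_allo against 46LCNEC_allo were named, by adjusted p, and Rest, and for each member the 2 genes with the highest r. Furin was named after its values were seen. Some genes that this rule gives are not reported here.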

Additional observations from a re-analysis of the deposited data

Results flagged for a closer look

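The difference between 57SCLC and 46LCNEC was itself different in allografts and in cells for 3 members, by the test of that difference over 12 samples with limma. For Vgf the difference was larger in allografts by 3.89 on the log2 scale (adjusted p = 0.000652), with tumors above cells in all 3 57SCLC tumors and below them in all 3 46LCNEC tumors. For Pcsk1n it was larger by 5.12 (adjusted p = 0.00739), again with all 57SCLC tumors above and all 46LCNEC tumors below their cells. For Cpe it was larger by 1.19 (adjusted p = 0.00871), with the tumors below the cells in both lines. The call of Pcsk1n was lost in 10 and that of Cpe in 11 of 12 fits that left out 1 library, that of Pcsk1n also with DESeq2 and that of Cpe with edgeR. The fibroblast marker sum was 23.4 to 28.9 in 57SCLC_cell, 38646 to 59643 in 57SCLC_allo, 76103 to 86538 in 46LCNEC_cell and 412474 to 831098 in 46LCNEC_allo, and its part in these differences was not tested.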

How the results depend on the processing

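The 9 calls in each comparison of the lines, and the 10 in each comparison of 57SCLC with Lung, held under all alternatives run, with Cpe added in allografts without tumor 321. Of 1162 member values under alternatives, 1078 kept their direction and side of the threshold, 56 lost and 10 gained a call, and 18 changed sign, none of them a called value. Members higher in 46LCNEC_cell than in Lung numbered 2 in place of 4 in the treat test above 2-fold, 3 with a pseudocount of 0.1 and in the model of 15 samples (without Pcsk1n, adjusted p = 0.0102 and 0.013), 3 with a pseudocount of 5 (without Scg5, 0.98) and 2 to 4 without single libraries. Members higher in 46LCNEC_allo than in Lung numbered 1 in place of 0 with DESeq2 and in the model of 15 samples (Cpe), and 0 to 1 without single libraries, and those lower 2 to 4. Between 57SCLC allografts and cells, the counts were 0 higher and 0 lower in both the treat test above 2-fold and the model of 15 samples, and 0 to 1 higher without single libraries (0 without tumor 317). Between 46LCNEC allografts and cells, 1 member was lower with a pseudocount of 0.1, 0 in the treat test above 2-fold and 0 to 3 without single libraries. For the difference between differences, members higher numbered 2 with edgeR and with no filter (without Cpe, adjusted p = 0.0145 and 0.0121), 2 with DESeq2 (without Pcsk1n, adjusted p = 0.0165), 1 with a pseudocount of 0.1, 1 in the treat test above 2-fold and 1 to 3 without single libraries, and members lower 1 with DESeq2 (Pcsk1, -2.71) and 0 to 1 without single libraries (Scg3, -1.80, without tumor 312). In this model Scg2 changed sign with edgeR (-0.70), DESeq2 (-0.87), TMM scaling (-0.039) and a pseudocount of 0.1 (-0.83), and ran from -0.35 to 0.19 without single libraries. Pcsk2 gave -0.24 with a pseudocount of 5 and -0.52 to 0.53 without single libraries, and Chga -1.39 to 0.24. Chga in 46LCNEC_allo against Lung ran from -0.32 to 1.41. The causes of these changes were not tested. TMM scaling moved the median of all genes in 46LCNEC_cell against Lung from -0.23 to -0.10 and turned no called member.

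Culture letters did not pair the samples, since deviations of same-letter cultures correlated at 0.0916, -0.0837 and -0.00619. With the replicate block, 9 members were higher and 0 lower in 57SCLC_cell than in 46LCNEC_cell, and Cpe again missed the fold (adjusted p = 0.00374). Allografts and lungs could not be blocked, since no other group shares the numbers in their labels. The labels do not say whether these numbers stand for tumors or animals. Depth limits Chga, Chgb, Scg2, Scg3, Pcsk1 and Pcsk2 in 46LCNEC, Pcsk1n and Vgf in 46LCNEC_allo, and Pcsk2, Vgf and Chga in Lung, which rest on few reads.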

Other observations

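The other marker lists were read in the same samples. The sums of 4 markers of airway club and ciliated cells were 197799 to 276916 in Lung and at most 442 in any other sample. Those of 4 endothelial markers were 71673 to 87179 in Lung, 9853 to 10589 in 57SCLC_allo, 7109 to 7768 in 57SCLC_cell, 4693 to 8232 in 46LCNEC_allo and 347 to 420 in 46LCNEC_cell. Those of 4 Schwann cell markers were 7363 to 9157 in 57SCLC_cell and 553 to 921 in 46LCNEC_allo. Those of 3 fat markers were 355 to 1476 in Lung, 309 in the 46LCNEC tumor numbered 312 and at most 14.8 in the other samples, and those of 3 skeletal muscle markers were 8.19 to 314 in Lung and at most 45.5 elsewhere.

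Calca, the gene of the peptide hormone calcitonin and CGRP, which is made from a precursor in such granules, had 37874 ± 4485 normalized counts in 57SCLC cells and 7775 ± 1119 in their tumors (SD, n = 3), and was called lower in the tumors. Ddc, which makes monoamines, had 3243 ± 345 and 7613 ± 278 and was called higher. Both genes were named after their values were seen.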
